A study of Homo sapiens with 8 samples.

Results

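The mucins examined here are 10 genes chosen by name from the deposited count table: MUC1, MUC2, MUC3A, MUC4, MUC5AC, MUC5B, MUC6, MUC13, MUC16 and MUC20. These genes and the related lists below were chosen with earlier results of these data known. All 10 were found among the 58870 genes of the table, and 8 of them passed the filter on low counts and were tested. They were followed in the cell line CFPAC-1, which was established from a human ductal adenocarcinoma of the pancreas. Cells with an empty vector (n = 4) were compared with cells carrying an ADRA2A transgene that overexpresses the receptor (n = 4). ADRA2A encodes the alpha-2A adrenergic receptor, which responds to adrenaline and noradrenaline, couples mainly to Gi and lowers cyclic AMP. Both groups were grown for 72 hours without drug treatment, and RNA was measured by bulk sequencing. The labels name neither the promoter of the transgene nor whether the cells are a clone or a pool. They also do not say whether the samples of a group are separate cultures, so the p-values below measure the spread between these samples, which may be technical.

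Mucins are large glycoproteins whose repeated serine- and threonine-rich stretches carry dense O-linked sugar chains. Gel-forming mucins (MUC2, MUC5AC, MUC5B and MUC6) are secreted and polymerise into mucus. Transmembrane mucins (MUC1, MUC3A, MUC4, MUC13 and MUC16, with the membrane-associated MUC20) form a coat on the apical cell surface, and several interact with receptor tyrosine kinases. Normal pancreatic ducts make little gel-forming mucin, whereas ductal adenocarcinomas and their precursors commonly express MUC1, MUC4, MUC5AC and MUC16.

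Library totals lay between 14427035 and 17528915 counts. ADRA2A had 0 counts in each of the 4 empty-vector libraries and 112, 142, 154 and 172 counts in the ADRA2A libraries, which matches the labels. Of 8 ductal epithelial markers 7 were tested, and their summed level was 11837 to 12392 counts-per-million (CPM) in the empty-vector libraries and 11521 to 12627 CPM in the ADRA2A libraries; the remaining marker, CFTR, had 4 to 20 counts per library. Of the 7 tested, KRT19 and EPCAM were higher and 4 were lower, namely KRT7 (log2 fold change -0.43), CDH1 (-0.33), SOX9 (-0.21) and KRT18 (-0.09). Markers of fibroblasts summed to at most 2.09 CPM and those of acinar cells to at most 0.316 CPM in any library. Endothelial markers summed to at most 3.35 CPM, with PECAM1 higher and KDR lower. Leukocyte markers summed to 89.8 to 96.2 CPM in the empty-vector libraries and 110 to 121 CPM in the ADRA2A libraries. Nearly all of this was CD68, which was higher (log2 fold change 0.32), while PTPRC had at most 4 counts and CD3E 0 in any library. Of 8 goblet cell markers, 4 (TFF3, SPINK4, CLCA1 and ATOH1) were at 0 counts in all libraries. The goblet markers summed to 41.6 to 45.0 CPM in the empty-vector libraries and 55.7 to 66.2 CPM in the ADRA2A libraries, and the 2 that were tested, SPDEF and FCGBP, were higher. Of 5 gastric gland markers LIPF was at 0 counts in all libraries, and MUC6 and PGC fell below the filter. AQP5 was called higher, with means of 227 and 293 CPM, and BPIFB1 was not called (edgeR adjusted p = 0.121). The gland sums of 219 to 240 and 290 to 299 CPM were therefore nearly all AQP5. Of 7 gastric foveolar markers 4 were tested: MUC5AC, itself a mucin of this family, was higher, VSIG1 (log2 fold change -0.69) and CAPN8 (-1.58) were lower, and TFF2 was not called, while GKN1 and GKN2 were at 0 counts in all libraries. Of 6 squamous or basal markers 2 were lower, with sums of 17.6 to 21.9 and 9.62 to 11.1 CPM. The part of such shifts in the mucin results was not tested. In bulk RNA, more cells making a transcript and more transcript per cell cannot be told apart.

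RefSeq promoter entries were found for 6 of the 10 mucins, and a pair is shown because these genes had the largest fold change (MUC13) and the highest level (MUC1) of the family. Each is the 250 bases before the RefSeq start on GRCh38.p14, read 5′ to 3′ on the gene's own strand. Capitals mark matches to 7 short motifs, which were chosen after the values were seen and searched on both strands: CRE (TGACGTCA), AP-1 (TGACTCA), HNF4 (CAAAGTCCA), a core promoter box (TATAAA), the GC box (GGGCGG), an ETS motif of the ELF3 type (CAGGAAG) and FOXA (TGTTTAC).
MUC13, chr3:124934752-124935001, minus strand: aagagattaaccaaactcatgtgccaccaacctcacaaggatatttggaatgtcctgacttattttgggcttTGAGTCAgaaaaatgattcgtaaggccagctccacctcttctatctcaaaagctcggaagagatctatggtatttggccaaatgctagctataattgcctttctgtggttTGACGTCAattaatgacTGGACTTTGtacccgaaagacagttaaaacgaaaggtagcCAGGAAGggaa
MUC1, chr1:155192916-155193165, minus strand: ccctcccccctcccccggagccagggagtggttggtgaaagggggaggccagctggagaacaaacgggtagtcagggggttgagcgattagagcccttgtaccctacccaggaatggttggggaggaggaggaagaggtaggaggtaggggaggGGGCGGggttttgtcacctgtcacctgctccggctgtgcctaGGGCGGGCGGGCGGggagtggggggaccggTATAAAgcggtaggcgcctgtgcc
The MUC13 window held the cyclic AMP response element CRE at 68 bases before the start, an inverted AP-1 match at 178, an inverted HNF4 match at 51 and the ETS match at 11. Of 27305 promoters of the same length, 1.77% held the CRE match, 4.16% the AP-1 match, 0.293% the HNF4 match and 10.5% the ETS match. The MUC1 window held the core promoter box at 24 bases before the start, found in 11.1% of promoters. It also held 4 GC box matches, 3 of them overlapping, and 42.3% of promoters held at least 1. Among the 6 members with an entry, CRE, AP-1 and HNF4 matches occurred in MUC13 alone, and FOXA matched none. The MUC13 start used here lies inside the longer span that GENCODE gives the gene, and which start the cells use was not measured. MUC5AC, MUC5B, MUC6 and MUC20 have no entry.

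The mucin family was higher in the ADRA2A cells wherever a difference passed the test. Of the 8 tested members, 6 were higher and 0 lower at an adjusted p-value under 0.05 (edgeR's quasi-likelihood test, Benjamini-Hochberg adjustment over all genes tested). These were MUC1, MUC4, MUC13, MUC20, MUC5AC and MUC5B, and the fitted change of the other tested members, MUC3A and MUC16, was also above 0 without passing. Across all 14785 genes tested, 42.7% were called in either direction, 21.6% higher and 21.1% lower. The median log2 fold change was 0.59 over the 8 tested mucins and 0.00 over all genes tested. In 4 of the 8 (MUC1, MUC13, MUC20 and MUC5B) every ADRA2A library lay above every empty-vector library, a pattern found in 19.7% of all genes tested; groups without overlap in either direction made up 39.2%.

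**Figure D1:**
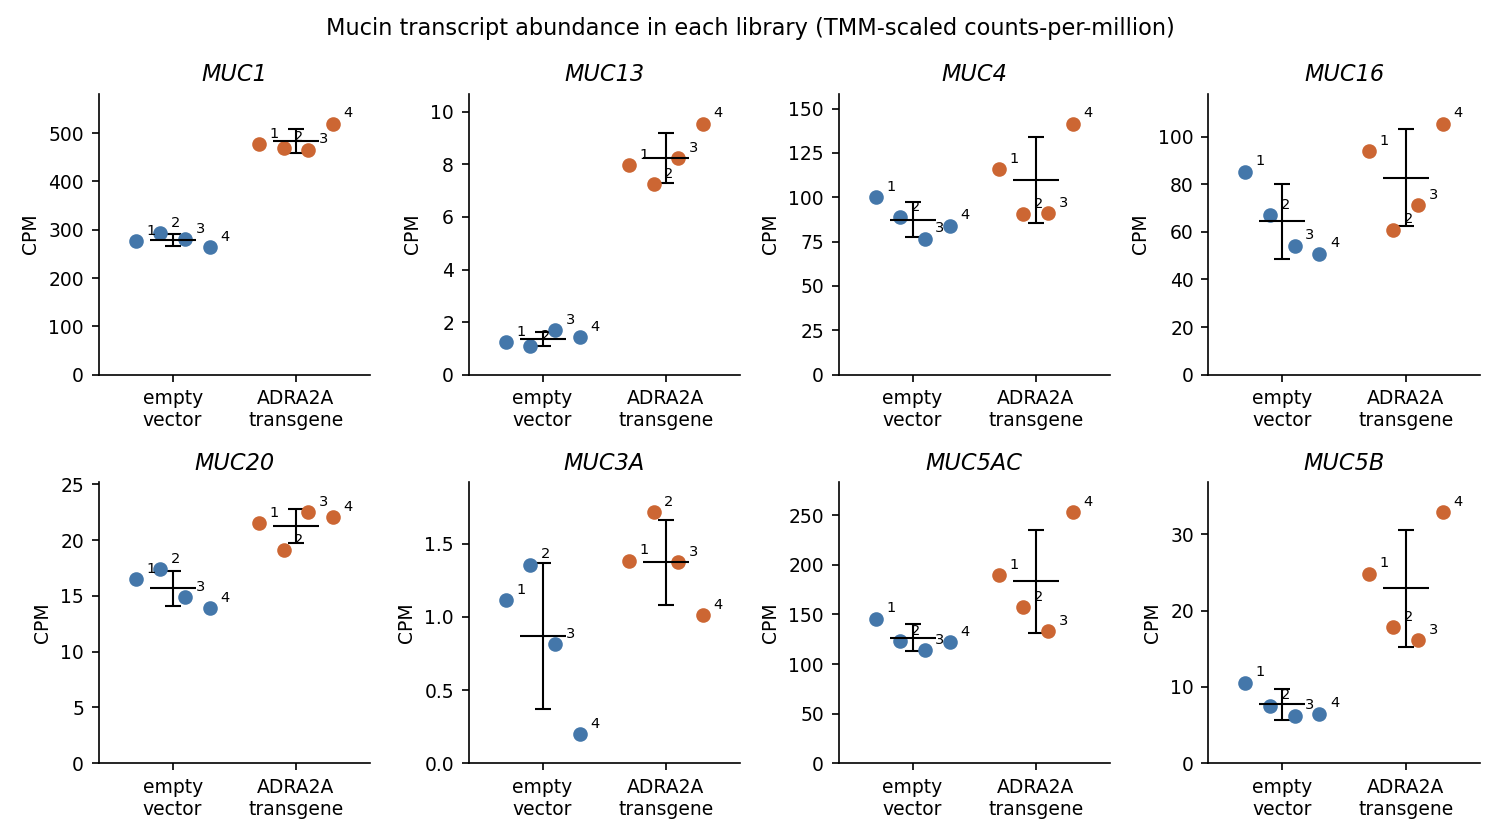
TMM-scaled CPM (y axis, from 0) of the 8 tested mucins in each library. Each point is 1 library with its replicate number, and the black line and bars are the group mean ± SD (n = 4). MUC1, MUC13, MUC20 and MUC5B do not overlap between groups, and replicate 1 of the empty vector and replicate 4 of ADRA2A are highest in their groups for MUC4, MUC16, MUC5AC and MUC5B.

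Among the transmembrane mucins, MUC13 changed most. MUC13 (ENSG00000173702.7; chromosome 3, 124905442 to 124953819, minus strand, GRCh38) is an epithelial mucin of the gastrointestinal tract with EGF-like domains. It had 1.23, 1.09, 1.68 and 1.44 CPM in empty-vector replicates 1 to 4, from 16 to 29 counts per library. The ADRA2A replicates 1 to 4 had 7.96, 7.26, 8.25 and 9.55 CPM, from 110 to 151 counts. The groups were far apart, with every ADRA2A library well above every empty-vector library. MUC13 rose 6.02-fold (log2 fold change 2.59 ± 0.17, SE; adjusted p = 3.68e-10, edgeR), which ranked 24 among the 14785 tested genes. The 9 other tested genes with a start within 1 Mb of MUC13 went both ways, 4 higher and 2 lower (21.6% and 21.1% over all tested genes). Their median log2 fold change was 0.15.

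MUC1 (ENSG00000185499.16; chromosome 1, 155185824 to 155192916, minus strand) encodes a widely expressed epithelial mucin whose extracellular part carries the CA15-3 epitope. Its level was 277, 293, 281 and 264 CPM in empty-vector replicates 1 to 4 and 477, 470, 466 and 520 CPM in ADRA2A replicates 1 to 4. The libraries within a group lay close together and the groups did not overlap. MUC1 rose 1.73-fold (log2 fold change 0.79 ± 0.04, SE; edgeR adjusted p = 4.76e-12), with the smallest standard error of the family. Of 54 tested neighbours within 1 Mb, 14 were higher and 7 lower (21.6% and 21.1% over all tested genes), with a median log2 fold change of 0.05.

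MUC4 and MUC20 lie side by side on chromosome 3. MUC20 (ENSG00000176945.17; 195720884 to 195741123, plus strand), which binds the MET receptor, had 16.5, 17.4, 14.9 and 13.9 CPM without the transgene and 21.5, 19.1, 22.5 and 22.1 CPM with it. The ADRA2A libraries were all higher, a rise of 1.36-fold (log2 fold change 0.45 ± 0.08, SE; edgeR adjusted p = 0.000264). Reads of MUC20 can be shared with its pseudogene copy MUC20P1, which had 3.33 ± 0.341 and 3.68 ± 1.06 CPM (SD, n = 4 each; adjusted p = 0.620), and with the overlapping MUC20-OT1 (adjusted p = 0.0762), so the division of counts among them is uncertain.

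MUC4 (ENSG00000145113.22; 195746765 to 195811973, minus strand) is a very large mucin that binds ERBB2. It had 99.9, 89.0, 76.7 and 84.0 CPM in empty-vector replicates 1 to 4 and 116, 90.6, 91.0 and 142 CPM in the ADRA2A replicates. Only 2 ADRA2A libraries lay above the highest empty-vector library, so the groups overlapped. MUC4 rose by 0.33 ± 0.11 on the log2 scale (SE; adjusted p = 0.0174, edgeR). Without ADRA2A replicate 4 it was 0.18 (adjusted p = 0.0895), and DESeq2 gave an adjusted p of 0.135. Over the 17 alternative fits the adjusted p of MUC4 ranged from 5.59e-11 to 0.135, and 12 of them passed. The lowest came from the edgeR fit without a filter, where the SE was 0.05, and the next lowest was 0.000131. Of the 20 tested neighbours of MUC4 within 1 Mb, 17 had a log2 fold change above 0, with a median of 0.20. The median over all genes tested was 0.00. The 20 include MUC20P1 (log2 fold change 0.14) and MUC20-OT1 (0.19), whose reads can be shared with MUC20 and which were not called. Of these 20, 8 were called higher and 2 lower (21.6% and 21.1% over all tested genes). The part of these neighbours in the changes of MUC4 and MUC20 was not tested.

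MUC16 (ENSG00000181143.15; chromosome 19, 8848844 to 9010390, minus strand) carries the CA125 antigen and binds mesothelin. Its level was 85.4, 67.0, 54.2 and 50.9 CPM in empty-vector replicates 1 to 4 and 93.8, 60.9, 71.2 and 105 CPM in the ADRA2A replicates. The groups overlapped broadly. Its difference of 0.36 ± 0.14 on the log2 scale (SE) missed the threshold (adjusted p = 0.0507, edgeR). Over the 17 alternatives the adjusted p ranged from 1.63e-11 to 0.254, with 8 of them past the threshold. The lowest came from the edgeR fit without a filter, where the SE was 0.05, and the next lowest was 0.00310. Leaving out 1 library moved the log2 fold change of MUC16 between 0.22 (without ADRA2A replicate 4) and 0.53 (without empty-vector replicate 1, adjusted p = 0.00310).

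MUC3A (ENSG00000169894.18; chromosome 7, 100949534 to 100968347, plus strand), an intestinal transmembrane mucin, was near the limit of detection with 3 to 20 counts in the empty-vector libraries and 16 to 26 in the ADRA2A libraries. Its 0.870 ± 0.501 and 1.37 ± 0.287 CPM (SD, n = 4 each) overlapped between the groups. The log2 fold change of 0.65 ± 0.37 (SE) did not pass (adjusted p = 0.174, edgeR), so a difference could not be detected from so few counts, and without empty-vector replicate 4 the log2 fold change was 0.33. Reads of MUC3A may also be shared with the near-identical MUC3B, which was not analysed here.

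The gel-forming mucins lie in 1 cluster on chromosome 11, where MUC5AC and MUC5B passed the filter and rose, while MUC2 and MUC6 had at most 5 counts in any library. MUC5B (ENSG00000117983.17; 1223066 to 1262172, plus strand), a main airway and gallbladder mucin, had 10.5, 7.53, 6.22 and 6.48 CPM in empty-vector replicates 1 to 4. With the transgene it had 24.8, 17.8, 16.1 and 32.9 CPM, and every ADRA2A library lay above every empty-vector library. MUC5B rose 2.96-fold (log2 fold change 1.57 ± 0.19, SE; edgeR adjusted p = 1.75e-06). Its antisense gene MUC5B-AS1 had 0 counts in all libraries.

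MUC5AC (ENSG00000215182.8; 1157953 to 1201138, plus strand), the mucin of gastric surface cells and of many pancreatic cancer precursors, was the most abundant gel-forming mucin. It had 146, 123, 114 and 122 CPM in empty-vector replicates 1 to 4 and 190, 158, 133 and 253 CPM in the ADRA2A replicates. The spread was wider in the ADRA2A group, and 3 of its 4 libraries lay above the highest empty-vector library. MUC5AC rose 1.45-fold (log2 fold change 0.54 ± 0.13, SE; edgeR adjusted p = 0.00192). Without ADRA2A replicate 4 the log2 fold change was 0.34 (adjusted p = 0.00430). DESeq2 on all 8 libraries gave an adjusted p of 0.0374 for MUC5AC. The 48 tested neighbours of MUC5AC within 1 Mb, 11 higher and 10 lower (21.6% and 21.1% over all tested genes), had a median log2 fold change of -0.01.

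MUC2 (ENSG00000198788.8; 1074875 to 1110511, plus strand), the intestinal goblet cell mucin, had 0, 2, 1 and 1 counts in empty-vector replicates 1 to 4 and 2, 0, 0 and 4 counts in the ADRA2A replicates. MUC6 (ENSG00000184956.16; 1012823 to 1036718, minus strand), the mucin of gastric glands, had 2, 5, 1 and 4 counts without the transgene and 0 in each ADRA2A library, where a count of 0 allows up to 3 counts per library. Neither passed the filter on low counts. When every gene with 1 count was fitted, MUC6 had an adjusted p of 0.0105 in edgeR's quasi-likelihood test and was lower, and MUC2 had 0.776. In that fit the SE of MUC16 was 0.05, against 0.14 with the filter. The p-values of that fit can therefore not be set beside the others. The lower MUC6 count rests on 12 counts in total.

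**Figure D2:**
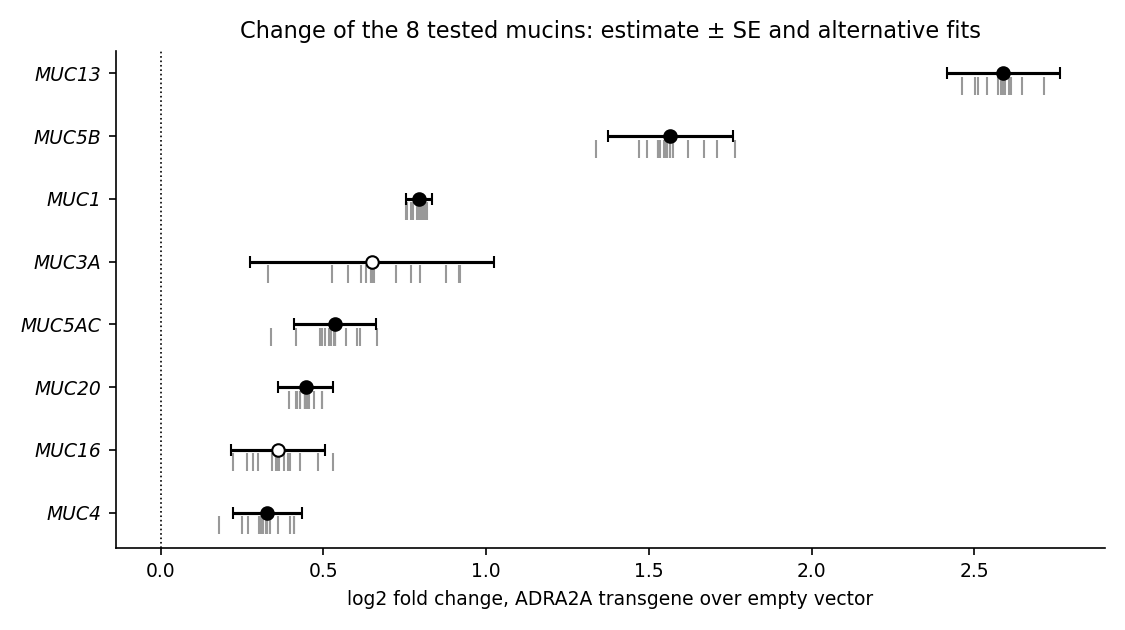
Log2 fold change (x axis) of the 8 tested mucins, ADRA2A transgene over empty vector. Circles are the edgeR estimates ± SE, filled where the adjusted p is under 0.05. Grey ticks are the 17 alternative fits (16 for MUC3A), all of which lie above 0. MUC13 and MUC5B stand highest, and MUC16 and MUC3A are open.

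Levels of different mucins were compared per length, as CPM per kb of the longest GENCODE transcript. This scale takes reads to be spread evenly along each transcript, which cannot be checked from counts per gene. On that scale MUC1 made up most of the mucin transcript, with 154 ± 6.60 CPM per kb (SD, n = 4) in the empty-vector cells and 267 ± 13.6 in the ADRA2A cells. This was 89.5% ± 1.02 and 90.7% ± 1.29 of the summed level of the 10 members (SD, n = 4 each). MUC5AC followed at 7.24 ± 0.779 and 10.5 ± 2.98 CPM per kb, MUC4 at 5.22 ± 0.582 and 6.55 ± 1.45, and MUC20 at 3.10 ± 0.312 and 4.21 ± 0.304 (SD, n = 4 each). On this scale MUC5AC exceeded MUC4, and MUC4 exceeded MUC20, in all 8 libraries, although the ranges of MUC5AC and MUC4 overlapped between ADRA2A libraries.

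With the longest transcript as the length, the order of the less abundant members differed between the groups. MUC16 had 1.16 to 1.95 CPM per kb in the empty-vector libraries, above MUC13 with 0.377 to 0.585, which could not be separated from MUC5B with 0.347 to 0.589. In the ADRA2A libraries MUC13 reached 2.52 to 3.32 CPM per kb and exceeded both MUC16 (1.39 to 2.41) and MUC5B (0.898 to 1.84) in all 4 libraries. MUC16 exceeded MUC5B within each of these libraries, although their ranges overlapped between libraries. The share of the gel-forming mucins in the summed level was 4.48% ± 0.509 in the empty-vector cells and 3.97% ± 0.885 with the transgene (SD, n = 4 each), within the spread between replicates.

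Below MUC1, both the order and the shares depended on the transcript length used. The median annotated transcript of MUC13 is 587 bases and that of MUC5B 461 bases, against 17448 for MUC5AC. With median lengths MUC13 lay below MUC16 and below MUC5B in all 8 libraries, at 2.32 ± 0.444 CPM per kb in the empty-vector cells and 14.1 ± 1.63 in the ADRA2A cells, so the change of order seen with the longest transcript was absent. MUC5AC then lay below MUC4 in all 8 libraries. MUC1 stayed highest on average and made up 79.4% and 79.1% of the sum in the empty-vector and ADRA2A cells. The gel-forming share was then 6.05% ± 1.07 in the empty-vector cells and 8.52% ± 2.03 in the ADRA2A cells (SD, n = 4 each). The libraries ranged from 5.13% to 7.60% and from 6.51% to 11.0%. The groups overlapped with either length, so neither direction of the share was established.

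**Figure D3:**
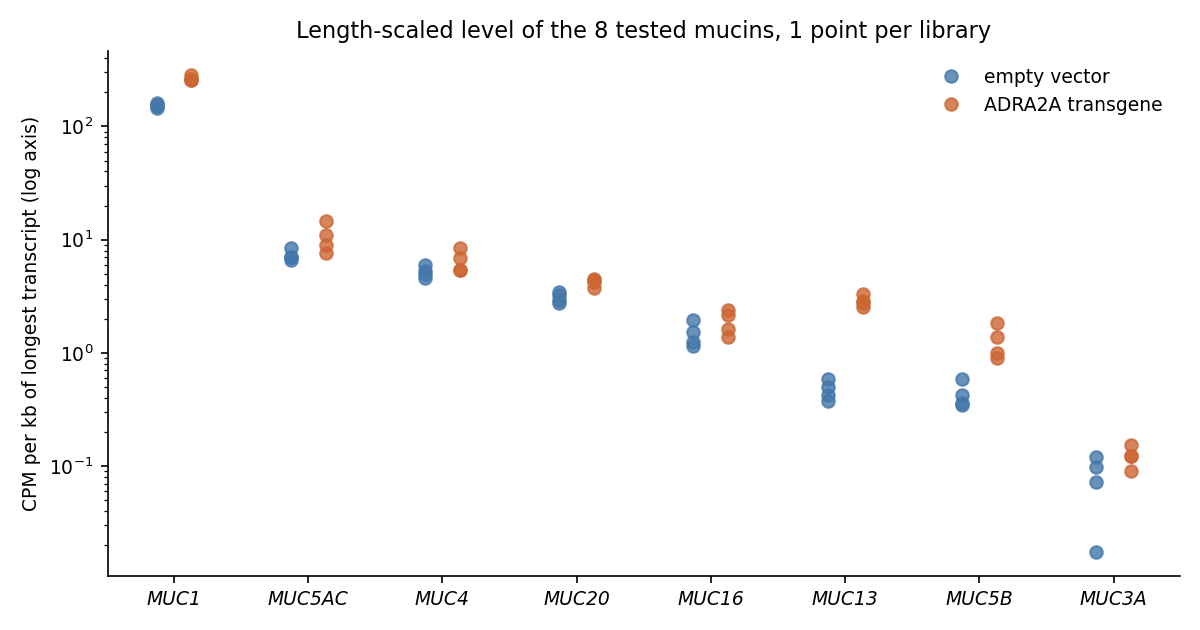
CPM per kb of the longest transcript (y axis, log scale) of the 8 tested mucins, 1 point per library, blue for the empty vector and orange for the ADRA2A transgene. MUC1 lies at 146 CPM per kb or more in every library, and with this length, though not with the median length, MUC13 is below MUC16 in the empty-vector libraries and above it in the ADRA2A libraries.

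Within each group, the 4 mucins with transcripts longer than 15 kb varied together from library to library. MUC5AC, MUC5B, MUC4 and MUC16 were all highest in replicate 1 of the empty-vector group and in replicate 4 of the ADRA2A group. Their mean deviation from the group mean of log2 CPM was 0.33, 0.02, -0.20 and -0.15 in empty-vector replicates 1 to 4. In ADRA2A replicates 1 to 4 it was 0.15, -0.29, -0.32 and 0.46. Among the members with shorter transcripts, MUC1 stayed within 0.11 of its group mean in all libraries and MUC20 within 0.17. MUC13, with few counts, ranged from -0.28 to 0.30, and MUC13 and MUC1 were also highest in ADRA2A replicate 4 (0.21 and 0.11). FCGBP, a mucus-associated protein with a long transcript, had 92, 58, 73 and 54 counts in the empty-vector replicates and 150, 121, 136 and 204 in the ADRA2A replicates, again with replicate 1 and replicate 4 highest.

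Other genes with long transcripts shifted in part of the same libraries. Over 135 other tested genes with a transcript of at least 15 kb, the median deviation was 0.07, -0.07, -0.01 and 0.04 in empty-vector replicates 1 to 4 and 0.05, -0.05, -0.10 and 0.09 in the ADRA2A replicates. Over 5661 genes with transcripts under 3 kb it stayed between -0.02 and 0.03. In the ADRA2A replicates these shifts had the signs of the long mucins and were smaller. In the empty-vector group the signs differed in replicate 2 (0.02 for the long mucins, -0.07 for the long genes) and in replicate 4 (-0.15 and 0.04). Of the 5 genes reaching 10 CPM that most closely followed the long mucins within groups, found after their values were seen, 4 had a longest transcript under 10 kb (ANKRD36, AMY2B, HECA and CNR1), and SYNE2 had 21842 bases. Between the groups, the 135 long genes had a median log2 fold change of 0.03, with 25 called higher and 27 lower (21.6% and 21.1% over all tested genes).

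A pair of fits added after the data were seen took these libraries into account. With a score of 649 long-transcript genes as a covariate, MUC5B had a log2 fold change of 1.62 ± 0.12, MUC5AC 0.57 ± 0.06, MUC4 0.36 ± 0.06 and MUC16 0.40 ± 0.11 (SE; edgeR adjusted p = 1.42e-09, 4.71e-07, 0.000131 and 0.00714). Without empty-vector replicate 1 and ADRA2A replicate 4 the values were 1.53, 0.42, 0.25 and 0.39, and the adjusted p-values were 7.82e-08, 0.000431, 0.0140 and 0.00967. The libraries left out in the latter fit were picked because these same mucins were highest in them, which narrows their spread. The covariate was also added after these mucins were seen to vary together. With it the SE of MUC5AC was 0.06, against 0.13 without it. The p-values of both fits are therefore no independent support.

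**Figure D4:**
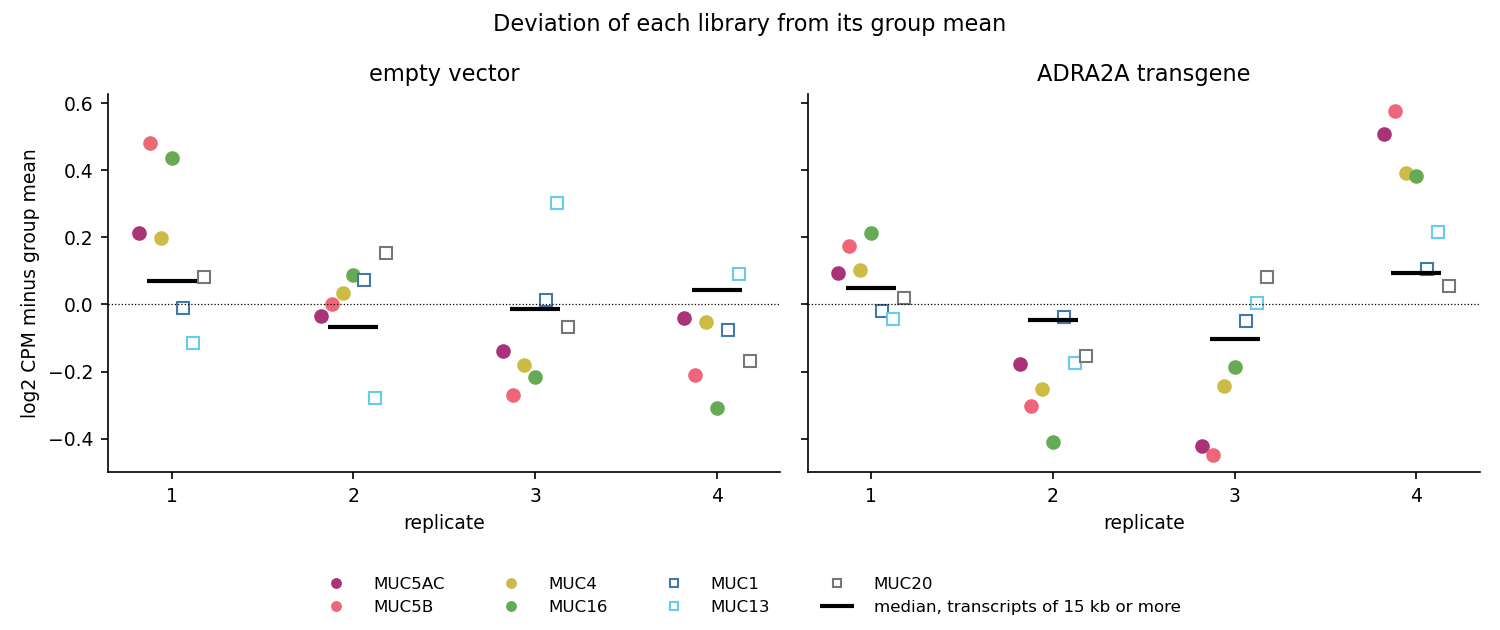
Log2 CPM minus the group mean (y axis) by replicate number (x axis) in each group. Filled circles are the 4 mucins with transcripts over 15 kb, open squares are MUC1, MUC13 and MUC20, and black bars are the median of 135 other genes with transcripts of 15 kb or more; replicate 1 of the empty vector and replicate 4 of ADRA2A have the highest filled circles.

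Genes with the most similar profile were sought for MUC5B and MUC1, the called members with the largest change among those reaching 10 CPM. Likeness was the root-mean-square difference in log2 CPM over the 8 libraries after each gene's mean was removed. Nearest to MUC1 were IGSF3 (difference 0.034), RNF128 (0.053) and NNMT (0.055), with log2 fold changes of 0.85, 0.75 and 0.75. Nearest to MUC5B were CYP3A5 (0.228), CACNA1D (0.230) and IFI44L (0.232), with log2 fold changes of 1.49, 1.37 and 1.32. No gene followed MUC5B as closely as IGSF3 followed MUC1.

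Other mucin genes were largely silent. Of 15 further mucin and mucin-like genes 13 were in the table, 3 were tested and 10 fell below the filter, among them MUC7, MUC12, MUC15, MUC17, MUC19, MUC21 and MUC22. CD164, a short sialomucin also called endolyn, rose from 259 ± 5.20 to 296 ± 6.40 CPM (SD, n = 4 each; log2 fold change 0.19, edgeR adjusted p = 7.86e-05). OVGP1 and MUCL3 stood near 1 CPM and did not pass (adjusted p = 0.910 and 0.604).

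Of 18 genes whose products help mucous cells fold or package mucins or are secreted with them, 10 were tested, 9 were higher and 0 lower. Among all tested genes 21.6% were called higher. The list was chosen with earlier results of these data known, so this count is no independent support. The median log2 fold change was 0.38, and TFF2, the tested gene without a call, had 0.12 (adjusted p = 0.395, edgeR). AGR2, a protein disulphide isomerase needed to fold gel-forming mucins, rose from 703 ± 36.3 to 796 ± 13.2 CPM (SD, n = 4 each; log2 fold change 0.18). Its relative AGR3 rose from 3.90 ± 0.398 to 11.6 ± 1.86 CPM (log2 fold change 1.57), and FCGBP, which binds to mucus, from 4.27 ± 0.796 to 9.76 ± 2.40 CPM (log2 fold change 1.18; SD, n = 4 each). TMED3, a cargo receptor of the early secretory pathway, rose by a log2 fold change of 0.19. The list also holds ERN2 and CREB3L1, regulators of the secretory stress response, which rose by 0.49 and 0.64 on the log2 scale. The 8 genes below the filter were not tested; among them TFF1 had 7 to 15 counts in the empty-vector libraries and 5 to 9 in the ADRA2A libraries, and REG4 had 1 to 6 and 0 to 2.

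O-glycosylation genes went both ways. The GALNT enzymes attach the first N-acetylgalactosamine to mucin serines and threonines; all 12 on the list were tested, 4 were higher and 5 lower, where 21.6% of all tested genes were higher and 21.1% lower. Their median log2 fold change was -0.07. Those that fell included GALNT3 (log2 fold change -0.41), GALNT6 (-0.43) and GALNT7 (-0.33), which together with GALNT10 (-0.25) and GALNT14 (-0.48) are the 5. GALNT2, the most abundant, had -0.04 (edgeR adjusted p = 0.369), and GALNT4 rose by 0.43.

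For extension and capping of O-glycans, 14 of 16 genes were tested, 7 were higher and 4 lower (21.6% and 21.1% over all tested genes), and the median log2 fold change was 0.08. GCNT3, the core 2 and core 4 enzyme of mucin-secreting tissue, rose from 26.3 ± 1.18 to 46.4 ± 2.19 CPM (SD, n = 4 each; log2 fold change 0.82, edgeR adjusted p = 6.01e-10). B3GNT3, which extends core 1 chains, rose by 0.24, and FUT2, which makes the H antigen, by 0.70. The sialyltransferases ST3GAL1 and ST6GALNAC1, which cap short chains, fell by 0.45 and 0.16 on the log2 scale.

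Among 22 transcription factors of mucous and gastrointestinal epithelium, 19 were tested, 9 were higher and 5 lower (21.6% and 21.1% over all tested genes), and the median log2 fold change was 0.17. The lower calls numbered 2 without empty-vector replicate 3 or without ADRA2A replicate 2, and 3 with DESeq2 or without empty-vector replicate 1 or 4 or ADRA2A replicate 1 or 4. ELF3, an epithelial ETS factor, rose from a mean of 240 to 381 CPM (log2 fold change 0.66 ± 0.04, SE; adjusted p = 7.73e-11, edgeR). HNF4G rose from 22.6 ± 1.45 to 41.5 ± 2.36 CPM (SD, n = 4 each; log2 fold change 0.88), and its relative HNF4A had a log2 fold change of 0.94. KLF5 rose by 0.20, SPDEF, a goblet cell regulator, by 0.41. CDX2, an intestinal factor, had 2.02 ± 0.610 CPM without and 5.67 ± 0.253 CPM with the transgene (SD, n = 4 each). The 5 factors that fell were GFI1 (log2 fold change -0.61), GATA6 (-0.21), KLF4 (-0.21), SOX9 (-0.21) and EHF (-0.10), and the adjusted p of GATA6, KLF4 and EHF lay between 0.0454 and 0.0484. FOXA1, FOXA2 and FOXA3 did not pass, with log2 fold changes of -0.20, -0.02 and 0.25.

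All 19 genes on the list of partners and sheddases of transmembrane mucins were tested, 11 were higher and 4 lower, against 21.6% and 21.1% over all tested genes. The share called lower was near the background, and the median log2 fold change was 0.18. MSLN, mesothelin, the ligand of MUC16, rose from 28.2 ± 1.78 to 55.7 ± 2.47 CPM (SD, n = 4 each; log2 fold change 0.98, edgeR adjusted p = 4.39e-11). The receptor ERBB3 rose from 130 ± 12.5 to 245 ± 15.6 CPM (log2 fold change 0.92), and ERBB2, the partner of MUC4, by 0.50. EGFR fell by 0.48 on the log2 scale. LGALS3, a galectin that binds MUC1, rose by 0.45, while LGALS1 fell by 0.90. EZR and ADAM9, the most abundant on the list, had log2 fold changes of 0.06 each and did not pass (adjusted p = 0.0747 and 0.120).

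**Figure D5:**
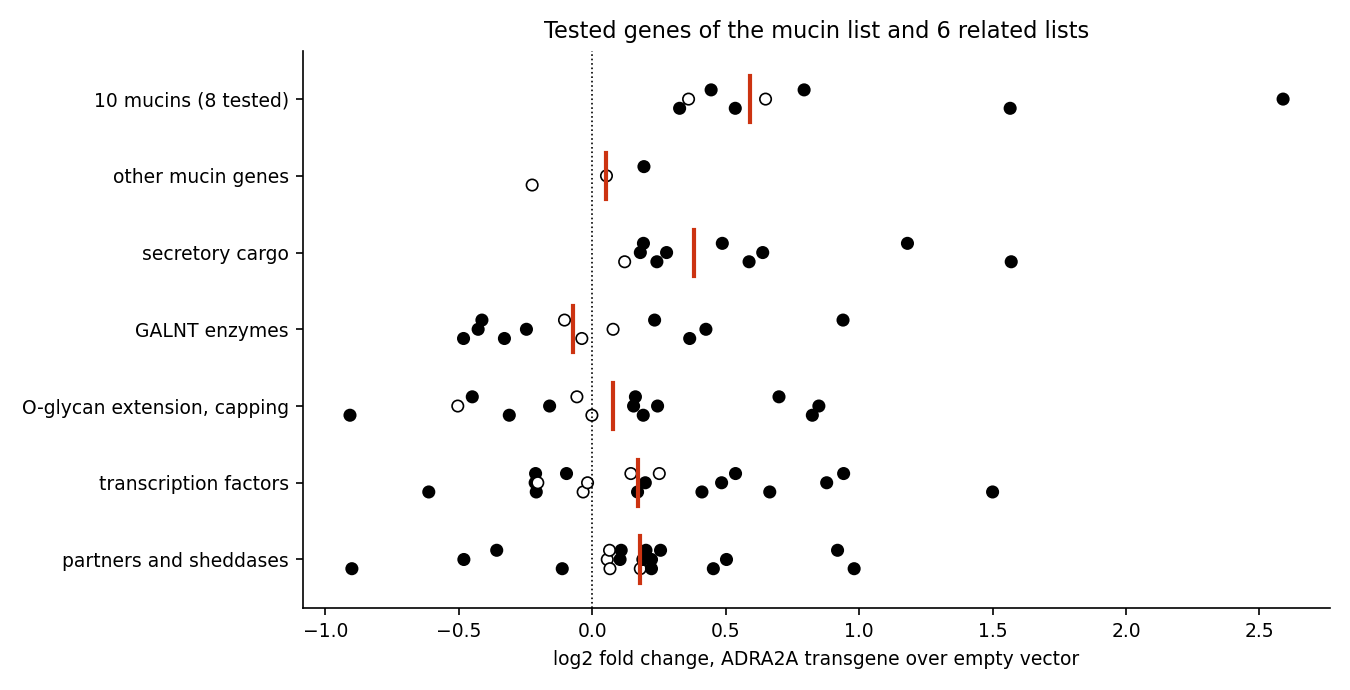
Log2 fold change (x axis), ADRA2A transgene over empty vector, of each tested gene in the mucin list and the 6 related lists (y axis; points are offset vertically so that they can be told apart). Filled points have an adjusted p under 0.05 and red lines are list medians; the mucins and the secretory list lie to the right of 0, while the GALNT enzymes lie on both sides.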

How the data were processed

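Bulk RNA sequencing of 8 CFPAC-1 libraries was analysed, 4 with an empty vector and 4 with an ADRA2A transgene. The authors deposited 1 table of expected counts per gene, named as RSEM output and not scaled between samples. The submitters' processing notes name cutadapt, STAR, RSEM, DESeq2 and hg38; versions, annotation release and use of strand are not given in the sources used here. Between 4.61% and 4.90% of the entries of a library had decimals, which RSEM gives where reads are divided between genes. Counts of similar or overlapping genes are therefore uncertain. These percentages cover all 58870 genes of the table, and the share among the 14785 tested genes was not measured.

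Counts were rounded, filtered with filterByExpr (14785 genes), scaled by TMM and tested with edgeR 4.0.16 (quasi-likelihood, group as the single term, R 4.3.3). P-values were Benjamini-Hochberg adjusted over all genes tested, with a threshold of 0.05. Positions and lengths came from GENCODE release 44 on GRCh38. The fit was tested on simulated data, where 94% of 100 genes changed by a log2 fold change of 1 and 75% of 100 changed by 0.5 were recovered.

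The alternatives were RLE and upper quartile factors, DESeq2 1.42.0, limma voom (limma 3.58.1), other filters, a replicate block and leaving out each library. Members, lists and alternatives were chosen with earlier results of these data known. All 10 mucins are named. In each other list the genes with the smallest p-values and highest levels are named, and further names were chosen after their values were seen.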

Additional observations from a re-analysis of the deposited data

How the results depend on the processing

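There were 15 planned fits and 2 fits added after seeing the data. The 8 tested mucins kept a log2 fold change above 0 in every fit that tested them. MUC3A was not tested in the fit with a mean of at least 50 counts. Between 5 and 8 mucins were called, against 6 in the fit reported, and the 8 were reached without a filter, where MUC6 was called lower. Calls without a filter are not comparable with the others, since the SE of MUC16 was 0.05 there and 0.14 in the fit reported. MUC1, MUC13, MUC20, MUC5AC and MUC5B passed the threshold in all 17 fits and MUC3A in none of the 16 that tested it. MUC4 (log2 fold change 0.33) lost its call with DESeq2 (0.33, adjusted p = 0.135) and in 4 of the 8 fits that each left out 1 library: without empty-vector replicate 3 or 4, or ADRA2A replicate 1 or 4, with values from 0.18 to 0.41 over the 8. MUC16 passed with no filter (0.36), with a mean of at least 50 counts (0.36), with the replicate block (0.36), with the long-transcript covariate (0.40) and without both libraries richest in long mucins (0.39). It also passed in 3 of the 8 fits that left out 1 library (0.22 to 0.53). The replicate numbers did not pair the samples, with correlations of deviations between -0.04 and 0.07 for the 4 same-numbered pairs, and the block changed no other mucin's call; it called 6400 genes against 6314. With median transcript lengths the share of MUC1 was 79.4% (empty vector) and 79.1% (ADRA2A), and the gel-forming share 6.05% and 8.52%. With neighbours within 500 kb, the median log2 fold change near MUC13 was -0.11 over 5 genes. Counts of 20 or fewer in every library limited MUC2, MUC6 and, in the empty-vector cells, MUC3A. Low counts also limited MUC3A in the ADRA2A libraries (16 to 26 counts) and MUC13 in the empty-vector libraries (16 to 29).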
